A study of Mus musculus with 12 samples.

Results

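The 4 arrays compared here held white adipose tissue at 4 h, 2 of mice fed CLA and 2 of control mice fed LA. They are all the samples labelled with these diets and 4 hours, 4 of the 12 arrays of the series. The other 8 arrays held the same diets at 12 and 24 h. Each array was 1 pool of RNA from 5 mice, so 20 mice stood behind the 4 h comparison and each diet had n = 2 pools, called rep1 and rep2. The labels call the fat depot RP and spell out neither that name nor the diets, whose usual meanings are conjugated linoleic acid and linoleic acid. They give neither the start from which the hours were counted nor the strain, sex or age of the mice. Dose and form of the fatty acids are likewise not given in the sources used here. A pool of whole fat holds adipocytes, vessels, immune cells and whatever adjoining tissue was dissected with it, so fewer cells of a type and less RNA per cell cannot be told apart.

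Conjugated linoleic acids are isomers of linoleic acid with adjacent double bonds, and feeding them is known to shrink white fat in mice. Cells faced with misfolded protein, missing amino acids or oxidants phosphorylate the initiation factor eIF2, which slows translation but favours that of ATF4. ATF4 then drives genes such as Atf3, Ddit3, Trib3 and Chac1, a programme called the integrated stress response, while HSF1 drives chaperone genes and NRF2 drives antioxidant genes such as Hmox1.

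Values are scaled intensities: each array was multiplied so that its trimmed mean was 500, and an intensity of 100 was taken as the level above which a signal was well measured. Differences are CLA minus LA means of log2(scaled intensity + 16), with the standard error of the limma fit. At 4 h, 7 of 12593 genes were higher with CLA at an adjusted p of at most 0.05 by limma, which is 0.0556% of the genes tested. No gene was lower at that threshold (0 of 12593, or 0%). At an unadjusted p under 0.05 there were 464 higher genes (3.68%) and 405 lower genes (3.22%). Both CLA pools lay above both LA pools for 1983 genes (15.7%) and below both for 1847 (14.7%). The 7 genes were Chac1, Atf3, Ccn1, Hmox1, Pole, Hspa1b and Ier3, and 6 of them coded for stress or immediate early proteins. With the intensities left unscaled, 18 genes were higher and 6 lower. In limma, 0 genes passed with only the 4 arrays of 4 h in the fit (574 at an unadjusted p under 0.05) or with array weights (472), and 0 passed when LA rep2 of 4 h, or a CLA pool of 24 h, was left out.

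The CLA pair was the least alike of the 6 pairs. Among 6339 genes with a mean of at least 500, rep1 and rep2 of the CLA pools of 4 h differed by more than 1 on the log2 scale for 237 genes, against 14 to 38 genes in the other 5 pairs. Rep1 of CLA was at 27.4 on the 3′ probe set of 18S ribosomal RNA, where rep2 was at 1331 and the LA pools at 1236 and 1432. Rep2 of CLA carried skeletal muscle transcripts, described with their values further on. Leaving out CLA rep1 left 4 higher and 2 lower genes in the limma fit. Leaving out CLA rep2 gave 12 higher and 19 lower genes. Chac1, Atf3, Hmox1 and Hspa1b were called in both of those fits. Without LA rep1, and without LA rep2, 0 of the 7 genes were called. Between the CLA pools, endoglin (Eng), a vessel wall receptor, was at 1257 in rep1 and 126 in rep2, and corneodesmosin (Cdsn) at 5962 and 860. In the other direction, Spry2, an inhibitor of growth factor signalling, was at 812 in rep1 and 2683 in rep2. These genes were picked after their values were seen, and the part of such gaps in the results below was not tested.

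**Figure D1:**
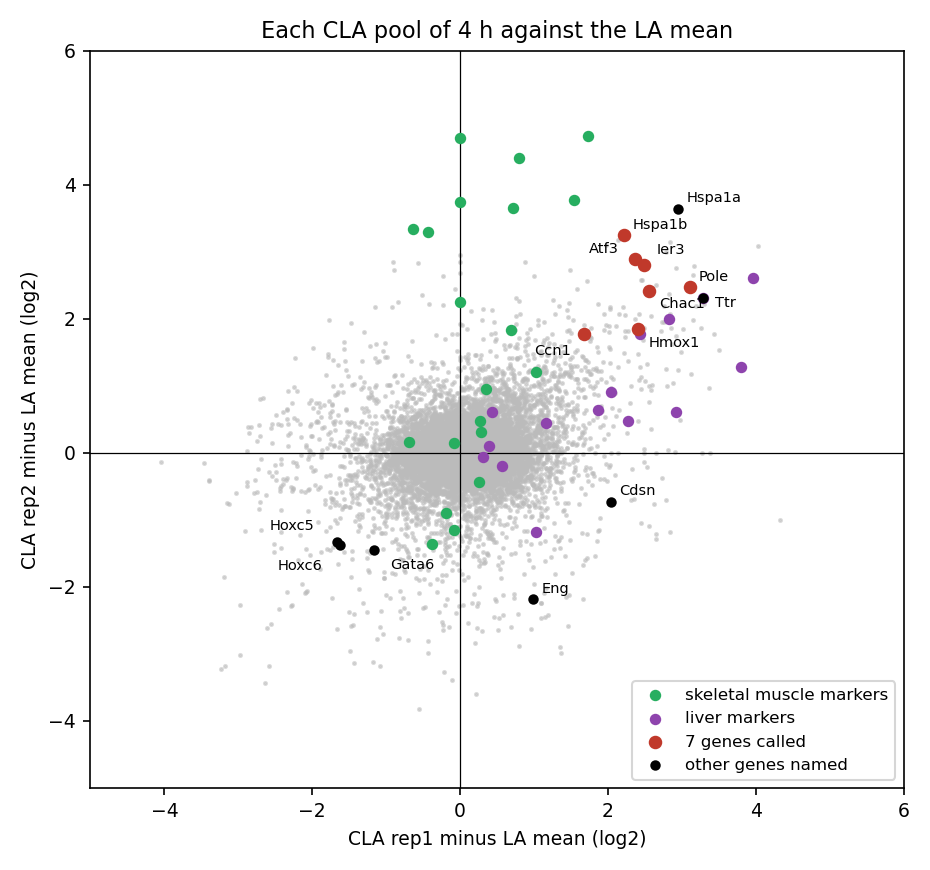
Each point is a gene, placed by the log2 difference of CLA rep1 (horizontal) and of CLA rep2 (vertical) from the mean of the LA pools of 4 h. The 7 genes called lie to the upper right, muscle markers rise along the axis of rep2, liver markers lie mostly toward rep1, and Hoxc5, Hoxc6 and Gata6 lie to the lower left.

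The promoters of called stress genes are shown because ATF4 and HSF1 act through short elements near the start site. Each window runs from 250 bases before to 50 bases after the start of the gene in RefSeq (GRCm38.p6), read 5′ to 3′ on the strand of the gene. Chac1 lies at chr2:119350992-119351291 on the plus strand, Atf3 at chr1:191183284-191183583 on the minus strand and Trib3 at chr2:152344011-152344310 on the minus strand. Trib3 was not called and is shown as another gene known to answer to ATF4. Capitals mark a match to the composite element of ATF4 and C/EBP factors, searched as TGATGNAA on both strands and here read from the opposite strand.
Chac1: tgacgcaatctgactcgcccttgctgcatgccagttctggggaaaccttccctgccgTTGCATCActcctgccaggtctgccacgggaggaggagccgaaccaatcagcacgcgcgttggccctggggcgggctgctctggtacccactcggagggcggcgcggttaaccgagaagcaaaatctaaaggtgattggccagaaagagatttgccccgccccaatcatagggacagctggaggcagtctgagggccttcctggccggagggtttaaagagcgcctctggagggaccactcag
Atf3: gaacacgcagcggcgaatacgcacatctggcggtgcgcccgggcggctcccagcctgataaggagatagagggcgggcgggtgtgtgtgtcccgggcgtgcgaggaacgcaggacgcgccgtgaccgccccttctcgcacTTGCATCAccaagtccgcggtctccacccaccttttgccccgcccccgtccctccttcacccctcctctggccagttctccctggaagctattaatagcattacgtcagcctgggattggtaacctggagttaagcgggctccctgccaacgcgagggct
Trib3: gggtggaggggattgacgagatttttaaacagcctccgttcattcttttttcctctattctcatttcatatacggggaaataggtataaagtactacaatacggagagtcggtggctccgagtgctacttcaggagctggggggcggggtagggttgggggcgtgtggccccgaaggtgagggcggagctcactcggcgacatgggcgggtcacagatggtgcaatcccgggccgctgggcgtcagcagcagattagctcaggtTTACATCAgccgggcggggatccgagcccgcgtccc
Hspa1b lies at chr17:34959189-34959488 on the minus strand, and capitals mark a match to GAANNTTC, the core of a heat shock element, which reads the same on both strands.
Hspa1b: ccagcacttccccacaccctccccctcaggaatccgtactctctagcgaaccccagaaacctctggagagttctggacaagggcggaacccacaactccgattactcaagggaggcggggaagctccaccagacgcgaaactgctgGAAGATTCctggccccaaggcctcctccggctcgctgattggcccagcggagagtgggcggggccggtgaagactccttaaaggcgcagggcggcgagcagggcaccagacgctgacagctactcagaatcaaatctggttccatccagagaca
The ATF4 element began 193 bases before the start of Chac1, 110 before that of Atf3 and 14 after that of Trib3, and the heat shock element began 104 bases before the start of Hspa1b. Of the 7 called genes, 5 had a window in the table. TGATGNAA was in 2 of these 5, and in 3.97% of all 32851 windows and 2.5% of the 12945 windows of genes tested. GAANNTTC was in 1 of the 5, and in 7.86% of all windows and 5.72% of those of genes tested. Searched in the same way on both strands, TGACGTCA (the CRE), TGANTCA (the AP-1 site) and the CArG box were in 0 of the 5 windows. TGACNNNGC, the antioxidant response element, was in 1 of the 5, that of Ccn1, and in 12.4% of all windows. The 15 highest ranked genes described below had 14 windows. TGATGNAA was in 2 of these 14, again those of Chac1 and Atf3. The windows of Ddit3 and Ppp1r15a, also genes of the integrated stress response, held no match to it. TGANTCA was in 2 of the 14, those of Ddit3 and Mmp12, and in 7.81% of all windows. GAANNTTC was in 2 of the 14 (Hspa1a and Hspa1b), and TGACNNNGC in 2 (Ccn1 and Ppp1r15a). TGACGTCA was in 1, that of Ppp1r15a, and in 1.79% of all windows. The CArG box was in 0 of the 14.

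Chac1 codes for an enzyme that breaks down glutathione and is a target of ATF4. Its scaled intensity was 3647 and 3323 in the CLA pools and 606 and 613 in the LA pools. The pools of each diet nearly coincided and lay far apart from those of the other diet. The difference was 2.48 ± 0.19, a 5.59-fold change (adjusted p = 0.0125 by limma), the smallest p of all genes. Atf3, an ATF4-induced transcription factor, was at 683 and 987 with CLA and at 147 and 97 with LA. Both CLA pools were above both LA pools, and the difference was 2.63 ± 0.26 (adjusted p = 0.0184 by limma).

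Other genes of the integrated stress response were apart between the diets without passing the threshold. Ddit3, the transcription factor CHOP, was at 1467 and 1003 with CLA and at 409 and 417 with LA, a difference of 1.52 ± 0.21 (adjusted p = 0.0944 by limma). Ppp1r15a, the GADD34 subunit that removes phosphate from eIF2, was at 1143 and 855 against 321 and 364 (1.49 ± 0.22, adjusted p = 0.0944 by limma). Atf4 itself was at 6257 and 4453 against 2661 and 2051 (1.17 ± 0.20, adjusted p = 0.155 by limma). For all of them both CLA pools were above both LA pools, and CLA rep1 was the higher CLA pool on the probe set used. On the second probe set of Atf4, rep2 was the higher CLA pool, at 1932 and 3437 against 1187 and 1470. Trib3, a pseudokinase that binds ATF4, was at 384 and 699 with CLA and at 71.3 and 153 with LA (2.14 ± 0.34, adjusted p = 0.129 by limma). Rep2 was the higher CLA pool there, but rep1 was on the second Trib3 probe set, at 711 and 411 against 200 and 160 (difference 1.52). Fgf21, a secreted metabolic hormone, was at 347 and 381 with CLA, while both LA pools were under 100 at 87.9 and 26.1. Setting the LA pools at 100, CLA was at least 3.27-fold above them, with an adjusted p of 0.547 by limma.

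Of the 41 measured genes of the integrated stress response list, 2 passed the test, both higher, and 19 (46.3%) had both CLA pools above both LA pools, against 15.7% of all genes. Only 2 members (4.88%, against 14.7% of all genes) had both CLA pools below, Cebpg and Ddit4. The median difference was 0.22, against 0.01 over all genes tested. Of the amino acid transporters, Slc38a2, Slc7a1, Slc3a2 and Slc6a9 were among the 19, while Slc1a5 overlapped between the diets. Slc7a5 and Slc7a11 overlapped too, but lay under 100 in all 4 pools, too dim to show a difference either way. Slc38a2 was at 3138 and 3816 against 1873 and 2078, and Slc7a1 at 543 and 871 against 353 and 414. Slc3a2, the heavy chain of the LAT1 transporter, was at 4865 and 3606 against 2704 and 2608. None of these transporters passed the test. Enzymes of asparagine and serine synthesis overlapped between the diets. Differences were 0.09 for Asns, 0.18 for Phgdh, -0.12 for Psat1 and -0.23 for Psph. Of 20 chaperone and related genes of the endoplasmic reticulum, a separate list, 0 passed and the median difference was -0.05. Both CLA pools were above in 1 (5%, against 15.7% of all genes) and below in 4 (20%, against 14.7%). Ddit4, which restrains mTORC1, was lower, at 990 and 1894 against 2507 and 2289. Taken alone, CLA rep1 was above both LA pools for 28 of the 41 members (68.3%, against 40.2% of all genes) and CLA rep2 for 27 (65.9%, against 36.1%).

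Heat shock genes, mostly chaperones that HSF1 induces, lay above LA in both CLA pools more often than genes at large. Hspa1b, an inducible HSP70, was at 4048 and 8274 with CLA and at 795 and 929 with LA. Rep2 was the higher CLA pool, and both were far above the upper LA pool. The difference was 2.73 ± 0.31 (adjusted p = 0.0370 by limma), and its 3 probe sets gave differences from 2.73 to 3.13. On the other probe sets of Hspa1b the CLA pools were closer together, at 3020 and 3213 and at 3004 and 4131. Hspa1a, the neighbouring copy of nearly the same sequence, was at 661 and 1081 against 46.4 and 108 (3.30 ± 0.60, adjusted p = 0.2 by limma). Probe sets for these copies can read both genes, so their values are not separate evidence. Hsph1, a nucleotide exchange factor for HSP70, was at 3588 and 4172 against 1790 and 1229 (adjusted p = 0.181 by limma). Dnajb1, its J-domain partner, was at 3458 and 5430 against 1762 and 1996 (adjusted p = 0.181 by limma). Of 19 heat shock genes measured, 1 passed and the median difference was 0.33. In 12 (63.2%, against 15.7% of all genes) both CLA pools were above both LA pools, and in 0 both were below (against 14.7%). Alone, CLA rep1 was above both LA pools for 15 members (78.9%, against 40.2% of all genes) and CLA rep2 for 16 (84.2%, against 36.1%).

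Hmox1, heme oxygenase 1, was at 1976 and 1345 with CLA and at 383 and 340 with LA. Both CLA pools were above both LA pools, and the difference was 2.13 ± 0.21 (adjusted p = 0.0184 by limma). It was the 1 member of 21 NRF2 targets measured that passed. Both CLA pools were above both LA pools in 6 of them (28.6%, against 15.7% of all genes). Gclm, the modifier subunit of glutamate-cysteine ligase in glutathione synthesis, was at 2159 and 1921 against 1494 and 1538, a difference of 0.42 ± 0.15 (adjusted p = 0.612 by limma). Srxn1, sulfiredoxin, was at 1098 and 1156 against 1001 and 866, with a difference of 0.27 ± 0.14. Osgin1 was at 530 and 337 against 268 and 98.9. The median difference of the list was 0.15.

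Immediate early genes did not move together. Ier3, an early gene of stress and growth factor signalling, was at 1707 and 2132 with CLA and at 380 and 222 with LA (2.65 ± 0.30, adjusted p = 0.0370 by limma). Ccn1, a matrix-associated signalling protein formerly called Cyr61, was at 1536 and 1639 against 426 and 520 (1.72 ± 0.17, adjusted p = 0.0184 by limma). The pools of both genes were well apart, but the 4 probe sets of Ccn1 differed, from 0.44 to 1.91, all of the same sign. Jun, a subunit of the AP-1 factor, was at 1543 and 1886 against 736 and 886 (1.06 ± 0.18, adjusted p = 0.170 by limma). Fos, its usual partner, was at 432 and 276 against 389 and 300, and Egr1 at 756 and 777 against 943 and 758, and in both the diets overlapped. Their differences were 0.02 ± 0.27 and -0.14 ± 0.22. Of 35 members measured, 3 passed (Ier3, Ccn1 and Atf3), and 12 (34.3%, against 15.7% of all genes) had both CLA pools above both LA pools. Both were below in 6 (17.1%, against 14.7%), among them Ccn2, Rhob and Gadd45b.

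Pole, the catalytic subunit of DNA polymerase epsilon, was the 1 gene called from dim arrays. It was at 154 and 92.9 with CLA and at -22.2 and 8.19 with LA, values at or near background. The fitted difference was 2.79 ± 0.28 (adjusted p = 0.0184 by limma), but with dim values set at 100 it was at least 1.17-fold higher, and it was not called when values under 100 were set to 100 on all arrays. Of the 25 cell cycle genes measured, Pole was the 1 that passed. Both CLA pools were above in 2 (8%, against 15.7% of all genes) and below in 7 (28%, against 14.7%). Cyclin D1 (Ccnd1), which starts the passage from G1 to S phase, was at 639 and 1216 with CLA and at 1776 and 1744 with LA, a difference of -0.98 ± 0.28 (adjusted p = 0.491 by limma).

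Genes were then ranked by their separation, the difference of the diet means divided by the pooled SD within the pairs of 4 h plus a constant of 0.272, the median of that SD over all genes. The ranking took genes whose pools did not overlap, with a difference of at least 0.6 and at least 200 in both pools of the brighter diet: 229 higher genes (1.82% of those tested) and 204 lower genes (1.62%). It is a description and gives no p. The 15 highest were Chac1, Ccn1, Atf3, Ier3, Hmox1, Hspa1a, 2410006H16Rik, Adamts1, Mmp12, Hspa1b, Dll4, Ttr, Ccdc74a, Ppp1r15a and Ddit3. Their differences ran from 1.17 to 3.30, and 6 of them passed the test. The separation was 2.80 for Ddit3 at place 15 and 2.72 for Fgf21 at place 16. Among the genes called, Pole was not ranked because it lay under 200.

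**Figure D2:**
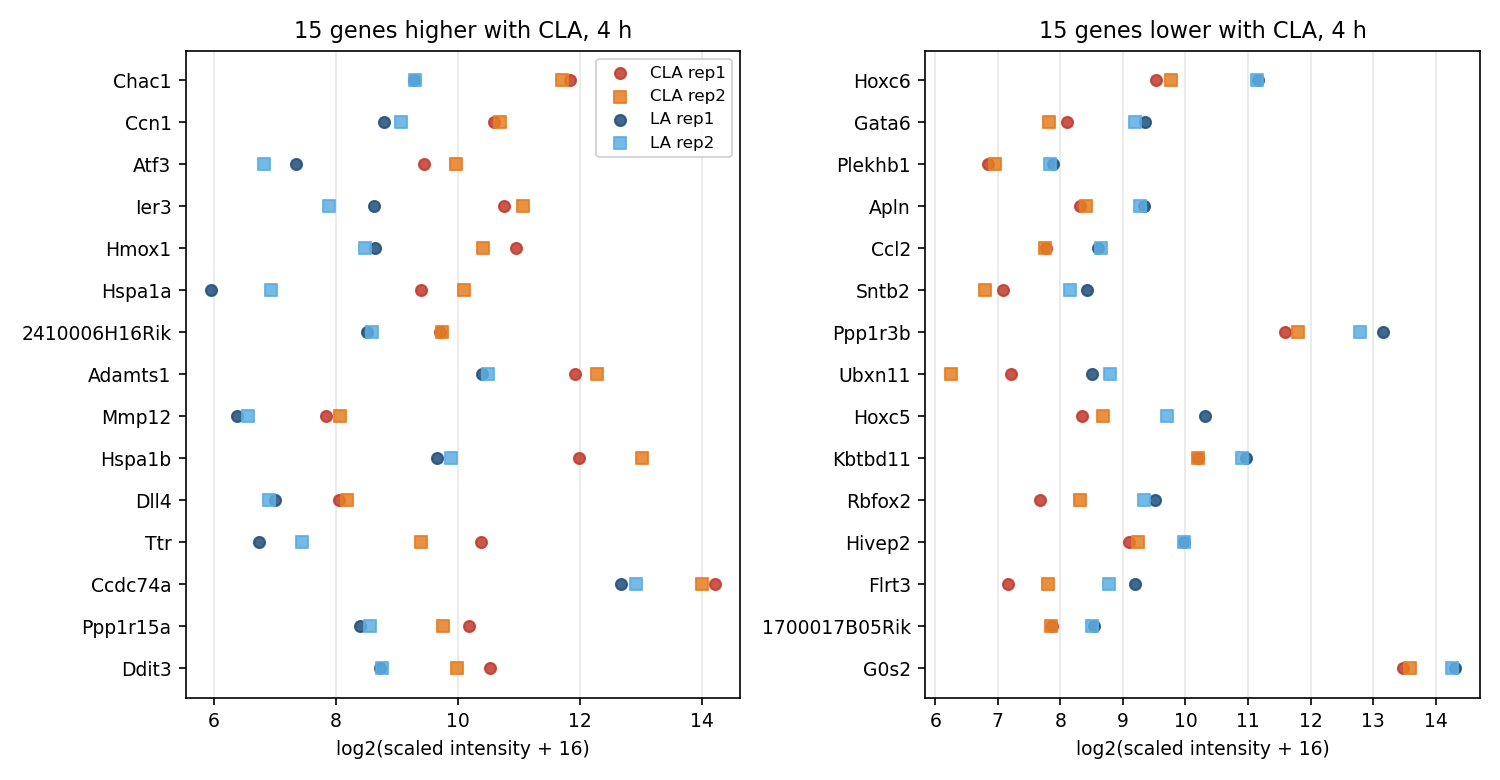
Points are the log2(scaled intensity + 16) of each pool of 4 h for the 15 genes ranked highest (left) and lowest (right) by separation. In all 30 genes the CLA pools lie on one side of the LA pools, and the pairs of Chac1, Ccl2, Kbtbd11 and 1700017B05Rik nearly coincide within each diet.

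The ranking brought up genes outside the stress lists. Adamts1, a secreted protease that cleaves proteoglycans, was at 3879 and 4968 with CLA and at 1338 and 1429 with LA, a difference of 1.65 ± 0.24 (adjusted p = 0.0944 by limma). Mmp12, the macrophage elastase, was at 213 and 253 against 67.7 and 78.5, and against LA pools set at 100 it was at least 2.14-fold above them, with an adjusted p of 0.633 by limma. Dll4, a Notch ligand of vessel tips, was at 251 and 277 against 113 and 104, but its 2 probe sets gave 0.12 and 1.17. All of these pools were apart by diet. The transcript 2410006H16Rik was at 818 and 844 against 349 and 371 (1.17 ± 0.23, adjusted p = 0.216 by limma). Ccdc74a was at 19060 and 16430 against 6524 and 7738, yet its second probe set gave -0.42 against 1.31 for the first.

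Of the 27 extracellular matrix genes measured, 0 passed. Both CLA pools were above in 5 (18.5%, against 15.7% of all genes) and below in 1 (3.7%, against 14.7%), so that Adamts1 stood out by its size and not with its group. The median difference of that list was 0.17. The related protease Adamts5 was lower, at 4601 and 5431 against 7735 and 6062. Mmp14, which activates other matrix proteases at the cell surface, was at 228 and 351 against 195 and 150.

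The 15 lowest genes were Hoxc6, Gata6, Plekhb1, Apln, Ccl2, Sntb2, Ppp1r3b, Ubxn11, Hoxc5, Kbtbd11, Rbfox2, Hivep2, Flrt3, 1700017B05Rik and G0s2. Their differences ran from -1.92 to -0.66 and none passed the test, with adjusted p from 0.0944 to 0.748 by limma. The separation was -2.27 for G0s2 at place 15 and -2.26 for Tfrc at place 16. Of these 15 genes, 10 were in none of the gene lists, against 4 of the 15 highest.

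Hoxc6 and Hoxc5, homeobox factors of neighbouring genes in the HoxC cluster, were both low. Hoxc6 was at 721 and 860 with CLA and at 2270 and 2249 with LA. The LA pools nearly coincided, both CLA pools were far below them, and the 3 probe sets gave differences from -1.64 to -1.14. The difference of the gene was -1.50 ± 0.23 (adjusted p = 0.112 by limma). Hoxc5 was at 309 and 394 against 1261 and 818 (-1.50 ± 0.45, adjusted p = 0.496 by limma), and its second probe set gave -2.58. Hoxa9, of another cluster, was at 1048 and 2026 against 3575 and 3225 (-1.21 ± 0.35, adjusted p = 0.489 by limma). Of the 17 Hox genes measured, 0 passed, and 7 (41.2%) had both CLA pools below both LA pools against 14.7% of all genes. Both were above in 3 (17.6%, against 15.7%), and the median difference was -0.21. Hoxc8, of the same cluster as Hoxc6, was at 3420 and 3905 against 4363 and 4078, a difference of -0.21 ± 0.17. Hox genes keep a positional pattern in adult fat and differ in level between depots.

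Gata6, a zinc finger factor, was at 260 and 210 with CLA and at 640 and 570 with LA (-1.31 ± 0.19, adjusted p = 0.0944 by limma). Its 3 probe sets were all lower with CLA, from -1.69 to -0.73. Rbfox2, a splicing regulator, was at 187 and 302 against 716 and 629 (-1.43 ± 0.27, adjusted p = 0.216 by limma). Apln, the adipokine apelin, was at 302 and 323 against 634 and 605, with a difference of -0.95 ± 0.28. In each of these genes both LA pools lay well above both CLA pools.

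Ppp1r3b, which tethers protein phosphatase 1 to glycogen and favours glycogen synthesis, was at 3084 and 3559 with CLA and at 9126 and 7065 with LA (-1.27 ± 0.28, adjusted p = 0.325 by limma). Its relatives were looked up after that value was seen. Ppp1r3c was at 2950 and 4011 against 4326 and 4604, and Ppp1r3d at 525 and 658 against 1179 and 996. Ppp1r3e and Ppp1r3f overlapped between the diets. Of the 5 family members measured, 3 had both CLA pools below both LA pools, against 14.7% of all genes, and 0 passed. Ppp1r3b is counted among the 3, and its place there was fixed because the family was looked up for its sake. In the wider list of insulin and glycogen genes, 0 of 21 passed. Both CLA pools were below in 6 (28.6%, against 14.7%) and above in 3 (14.3%, against 15.7%). Hk2, which traps glucose in the cell, was at 5817 and 7779 against 9862 and 10270, and Pik3r1, the regulatory subunit of PI3 kinase, at 2127 and 2223 against 3877 and 2932. Prkcz, an atypical protein kinase C of that list, was at -26.2 and 10.1 with CLA and at 133 and 89.7 with LA, close to background. Its adjusted p by limma was 0.0524.

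G0s2, an inhibitor of the lipase ATGL, was at 11430 and 12330 with CLA and at 20190 and 19730 with LA. The pools of each diet were tight and apart, but the difference of -0.75 ± 0.30 had an adjusted p of 0.675 by limma. Of 26 genes of lipolysis and fatty acid oxidation, 0 passed. Both CLA pools were above in 5 (19.2%, against 15.7% of all genes) and below in 3 (11.5%, against 14.7%). Pdk4, which spares glucose when fat is burned, was at 4216 and 4556 against 1951 and 3391 (0.76 ± 0.28). Ucp3 was at 973 and 934 against 1536 and 1321.

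Cholesterol synthesis genes, targets of SREBP2, leaned down. Of 19 measured, 0 passed, and 9 (47.4%) had both CLA pools below both LA pools against 14.7% of all genes. Both were above in 1 (5.26%, against 15.7%), and the median difference was -0.23. Sc5d, which makes a late double bond in the sterol ring, was at 6968 and 8110 against 13430 and 10810 (-0.68 ± 0.17, adjusted p = 0.433 by limma). Fdft1, squalene synthase, was at 2390 and 3525 against 4283 and 4197. Hmgcs1 was at 14220 and 14040 against 17710 and 15460, a smaller gap. Alone, each CLA pool was below both LA pools for 12 of the 19 members (63.2%), against 38.1% of all genes for rep1 and 33.4% for rep2.

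Genes of fatty acid and triglyceride synthesis were uneven between the CLA pools. Of 26 measured, 0 passed, and the median difference was 0.01. Both CLA pools were below in 5 (19.2%, against 14.7% of all genes) and above in 2 (7.69%, against 15.7%). CLA rep1 lay above both LA pools for 14 members (53.8%, against 40.2% of all genes) and below for 8 (30.8%, against 38.1%). CLA rep2 lay above for 3 (11.5%, against 36.1%) and below for 13 (50%, against 33.4%). Scd1, the main stearoyl-CoA desaturase of fat, was at 89710 and 74320 with CLA and at 62700 and 73690 with LA. Pnpla3, a lipid droplet protein that follows insulin and SREBP1c, was at 1349 and 1572 against 2558 and 2574 (-0.81 ± 0.23, adjusted p = 0.489 by limma). Gpat3, which starts triglyceride synthesis, was at 7360 and 8758 against 12550 and 12670 (-0.65 ± 0.22). The pools of Pnpla3 and Gpat3 were clearly apart.

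The defining markers of the labelled tissue were bright on all 4 arrays. Adiponectin (Adipoq) was at 75780 and 64330 with CLA and at 55490 and 63570 with LA, a difference of 0.23 ± 0.17 (adjusted p = 0.877 by limma). Pparg, the master regulator of adipocytes, was at 8028 and 8568 against 7774 and 7055 (0.16 ± 0.14), and leptin (Lep) at 16570 and 14150 against 17760 and 14390 (-0.06 ± 0.32). Of the 27 adipocyte genes measured, 0 passed, and the median difference was 0.18. Both CLA pools were above in 8 (29.6%, against 15.7% of all genes) and below in 0 (against 14.7%). That lean rested on 1 pool: rep1 of CLA was above both LA pools for 22 of the 27 (81.5%, against 40.2% of all genes), and rep2 for 9 (33.3%, against 36.1%).

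**Figure D3:**
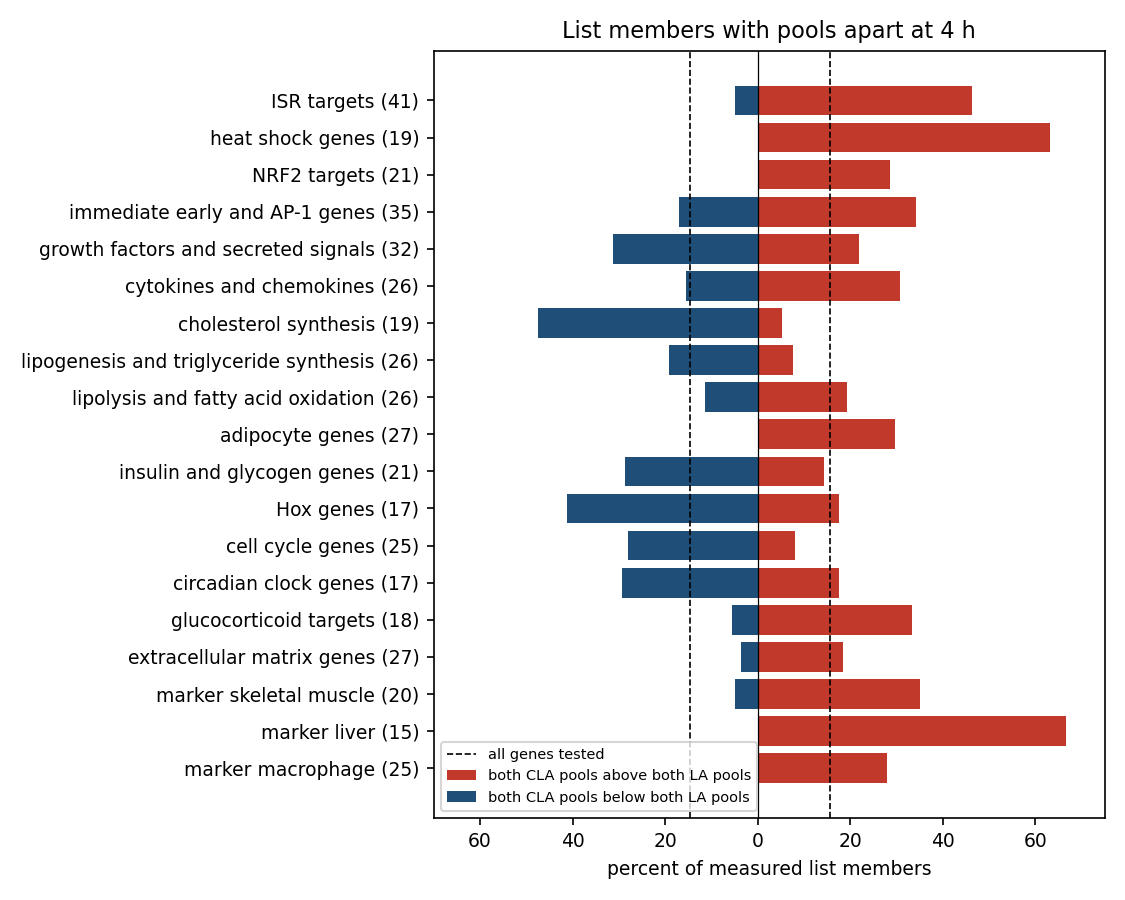
Bars give the percent of the measured members of each gene list (number in brackets; ISR is the integrated stress response) whose CLA pools both lie above (right) or below (left) both LA pools at 4 h. Dashed lines mark the same shares over all 12593 genes, 15.7% and 14.7%, which heat shock genes (63.2%), liver markers (66.7%) and ISR targets (46.3%) exceed on the right and cholesterol synthesis (47.4%) and Hox genes (41.2%) on the left.

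Cytokine genes lay on both sides of 0 at 4 h. Of 26 cytokine and chemokine genes measured, 0 passed, and the median difference was 0.02. Both CLA pools were above in 8 (30.8%, against 15.7% of all genes) and below in 4 (15.4%, against 14.7%). These counts took in genes at background, such as Il6 among the 8 and Cxcl3 among the 4. Ccl2, the main attractant of monocytes, was lower in both CLA pools, at 202 and 199 against 372 and 387, a difference of -0.87 ± 0.26 (adjusted p = 0.496 by limma). Ptx3, a soluble pattern receptor, was at 117 and 118 against 54.6 and 61.3. Il6 lay at 13.1 to 30.3 in all 4 pools, at background. Of 25 macrophage markers measured, 0 passed, with a median of 0.26. Both CLA pools were above in 7 (28%, against 15.7% of all genes) and below in 0 (against 14.7%). Trem2, a lipid receptor of macrophages, was at 112 and 110 with CLA and near background, at 15.7 and 8.34, with LA. Cd14 was at 610 and 445 against 454 and 318, and C1qa, a complement subunit, at 5749 and 2903 against 3122 and 2923. The diets overlapped in Cd14 and C1qa.

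Growth factors and other secreted signals were apart in both directions, more often below. Of 32 measured, 0 passed, and the median difference was -0.09. Both CLA pools were above in 7 (21.9%, against 15.7% of all genes) and below in 10 (31.2%, against 14.7%). Nrg4, an adipokine, was at 2818 and 3637 against 4721 and 5225 (-0.63 ± 0.20, adjusted p = 0.521 by limma). Inhbb, an activin subunit made by fat cells, was at 1128 and 1020 against 1611 and 1396. Clock genes were mixed as well: of 17 measured 0 passed, with a median of 0.04. Both CLA pools were above in 3 (17.6%, against 15.7% of all genes) and below in 5 (29.4%, against 14.7%). Nr1d1 was at 2147 in CLA rep1 and 549 in CLA rep2, against 410 and 373 with LA, so that its difference of 1.44 ± 0.95 rested on 1 pool.

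Glucocorticoid targets had the largest median of the pathway lists described here, at 0.46, with 0 passing. Both CLA pools were above in 6 of 18 (33.3%, against 15.7% of all genes) and below in 1 (5.56%, against 14.7%). The LA pools disagreed on several of them. Zbtb16 was at 502 in LA rep1 and 1635 in LA rep2, and Mt2, metallothionein 2, at 1953 and 7929. The CLA pools were at 1715 and 1978 for Zbtb16 and at 6378 and 9033 for Mt2, so only LA rep1 stood low.

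A pair of further patterns was looked up after the values were seen. Tfrc, the transferrin receptor, was at 879 and 1353 with CLA and at 3067 and 2594 with LA (-1.36 ± 0.22, adjusted p = 0.145 by limma), and Galm, which interconverts the forms of galactose, at 3377 and 2369 against 868 and 1181 (1.47 ± 0.22, adjusted p = 0.112 by limma). Of 15 host genes of small nucleolar RNAs measured, many of whose spliced transcripts are lost to translation-dependent decay, 0 passed, 8 (53.3%, against 15.7% of all genes) had both CLA pools above both LA pools and 2 (13.3%, against 14.7%) had both below, with a median of 0.38. Snhg1 was at 1427 and 1857 against 784 and 925, and Snhg12 at 821 and 691 against 360 and 397. Gas5 was at 3629 and 3652 against 2943 and 2565.

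Markers of other tissues were uneven between the CLA pools. Of 20 skeletal muscle markers measured, 0 passed. Both CLA pools were above in 7 (35%, against 15.7% of all genes) and below in 1 (5%, against 14.7%). The median difference was 1.12, with 0.13 for CLA rep1 and 1.51 for CLA rep2. Mylpf, a fast myosin light chain, was at 84.1 in CLA rep1 and 749 in CLA rep2, against 46.8 and 43.3 with LA. Ckm, muscle creatine kinase, was at 37.2 and 410 with CLA and below 0 in both LA pools. The summed intensity of the 20 markers was 5235 in CLA rep1, 10920 in CLA rep2, and 6148 and 5948 with LA. Eno3, a muscle enolase, was above both LA pools in both CLA pools, at 256 and 291 against 89.3 and 154. Muscle markers were also high in both CLA pools of 12 h, whose median marker level was 8.39 and 7.95 on the log2 scale, close to the 8.22 of CLA rep2 at 4 h.

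The median level of liver markers was above that of both LA pools in both CLA pools, and highest in CLA rep1. Transthyretin (Ttr) was at 1313 and 660 in the CLA pools and at 91.3 and 159 in the LA pools, a difference of 2.79 ± 0.70 (adjusted p = 0.435 by limma), and its 4 probe sets gave 2.37 to 3.77. Albumin (Alb) was at 4341 and 2625 against 2038 and 1815, and Serpina1c, an antitrypsin, at 1104 and 328 against 105 and 159. Of 15 liver markers measured, 0 passed. Both CLA pools were above in 10 (66.7%, against 15.7% of all genes) and below in 0 (against 14.7%). The median difference was 1.37, with 2.04 for rep1 and 0.61 for rep2. CLA rep1 was above both LA pools for 15 of the 15 markers (against 40.2% of all genes) and CLA rep2 for 10 (66.7%, against 36.1%). Their summed intensity was 109400 and 84980 with CLA and 76230 and 87660 with LA, most of it from Cyp2e1 and Rbp4, which fat also makes. Of the 15, 13 reached 100 in CLA rep1, against 8 in CLA rep2 and 5 and 6 with LA. At 24 h the order was turned: Ttr was at 382 and 830 with CLA and at 3406 and 1876 with LA. The part of these transcripts in the differences of other genes was not tested. Chac1, Atf3, Hmox1 and Hspa1b were called without CLA rep1 and also without CLA rep2, but not without LA rep1 or without LA rep2.

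**Figure D4:**
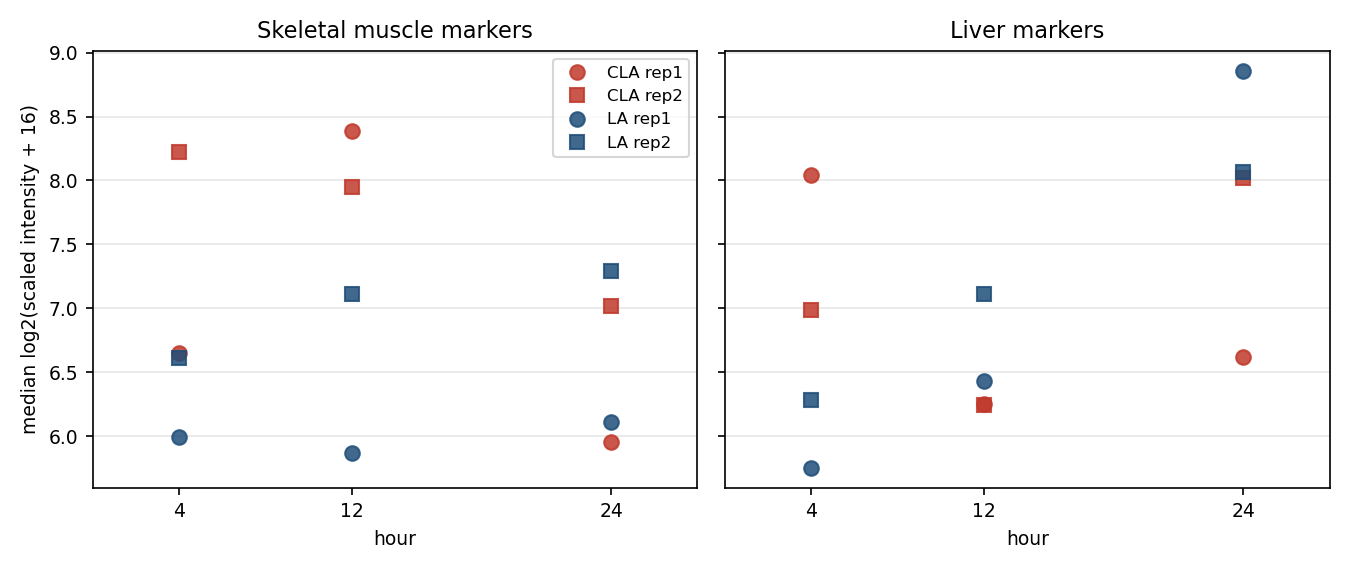
Points are the median log2(scaled intensity + 16) of 20 skeletal muscle markers (left) and 15 liver markers (right) on each of the 12 arrays, by hour; colour gives the diet and shape the replicate. CLA rep2 of 4 h and both CLA pools of 12 h are high in muscle markers, and CLA rep1 of 4 h, CLA rep2 of 24 h and both LA pools of 24 h are high in liver markers.

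The 12 and 24 h pools, from other mice, showed where the 4 h differences stood later. By limma, CLA pools exceeded LA pools for 267 genes (2.12%) of 12 h and fell short for 300 (2.38%), and the same counts of 24 h were 1358 (10.8%) and 1382 (11%). Of the 15 highest ranked genes of 4 h, 9 were called higher at 12 h and 12 at 24 h, and 0 were called lower. Of all 229 ranked higher genes, 41 were called higher at 12 h (17.9%) and 55 at 24 h, where 10 were called lower. Of the 15 lowest, 5 were called lower at 12 h and 4 at 24 h, with 1 called higher at each time, Ccl2. Of all 204 ranked lower genes, 39 were called lower at 12 h (19.1%) and 35 at 24 h, where 13 were called higher.

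For Chac1, the CLA pools of 12 h were at 1355 and 1613 and those of 24 h at 939 and 933, with LA pools at 276 to 545. The effect was 2.17 at 12 h and 0.95 at 24 h, and it was larger at 4 h than at 24 h (adjusted p = 0.0196 by limma). Its difference from 12 h did not pass (adjusted p = 0.793 by limma). Hspa1b went the other way, with CLA pools at 26747 and 29055 at 12 h and at 21314 and 21431 at 24 h, and its effect at 4 h was smaller than at 24 h (adjusted p = 0.0405 by limma). Atf3 and Hmox1 kept effects between 2.13 and 2.97 at all 3 times, and their adjusted p for a difference from 24 h was 0.597 and 0.168 by limma. Ccl2 turned round, from -0.87 at 4 h to 2.14 at 12 h and 4.13 at 24 h, where its CLA pools were at 8344 and 8569 (adjusted p against 24 h = 0.00102 by limma).

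The difference of Ppp1r3b was -3.61 at 12 h and -2.81 at 24 h, both called lower, and that of Hoxc6 was -1.25 at 12 h, also called, and -0.72 at 24 h, not called (adjusted p = 0.0596 by limma). For Ppp1r3b, the adjusted p of the difference between the effects of 4 h and 12 h was 0.134 by limma. Over all genes, 3 had effects at 4 h that differed from those at 12 h: Pole above (0.00794% of genes), and Cbr3 and Srxn1 below (0.0159%). Cbr3 and Srxn1, NRF2 targets, had effects of -0.25 and 0.27 at 4 h and of 2.12 and 2.48 at 12 h (adjusted p = 0.0210 and 0.0231 by limma). Hmox1, which shares that regulator, was already 4.37-fold higher at 4 h. Against 24 h, 880 genes differed in their effect, 444 with a higher one at 4 h (3.53%) and 436 with a lower one (3.46%).

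**Figure D5:**
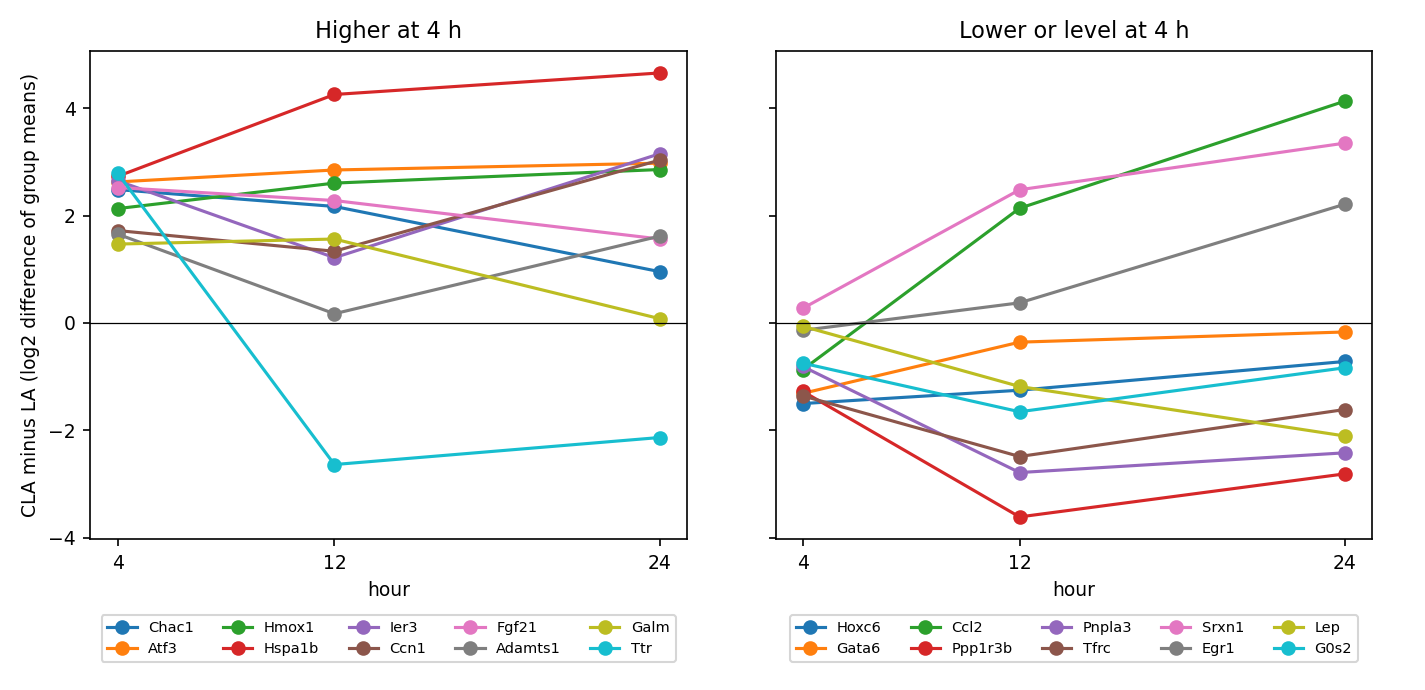
Lines join the CLA minus LA difference (log2) at 4, 12 and 24 h for 10 genes higher at 4 h (left) and 10 lower or level at 4 h (right); each point compares 2 pools with 2. Chac1 falls from 2.48 to 0.95, Hspa1b climbs to 4.65, Ttr drops to -2.64 at 12 h, and Ccl2 and Srxn1 climb from near or below 0 to 4.13 and 3.35.

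The authors' deposited table of ratios for 4 h, read here as CLA over LA, gave more calls. Adjusted over the same 12593 genes, its p-values passed for 46 higher genes (0.365%) and 58 lower genes (0.461%). In the authors' deposited table, 6 of the 7 genes called by limma passed, all but Pole, whose ratio there was 1.98 with an unadjusted p of 0.218. The authors' deposited table also passed 12 of the 15 highest and 7 of the 15 lowest ranked genes. Its ratio was 5.25 for Chac1, 8.24 for Atf3, 0.401 for Ppp1r3b and 0.305 for Gata6, each past the threshold. In the authors' deposited table the Hoxc6 probe set used here had a ratio of 0.741 with an adjusted p of 0.793, a smaller gap than the pools showed. The remaining probe sets of Hoxc6 had unadjusted p of 0.00187 and 0.00078 in the authors' deposited table.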

How the data were processed

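White adipose tissue RNA of mice was hybridised to 12 Affymetrix arrays, 1 per pool of 5 mice, and the labels call the 2 pools of each of the 6 groups biological replicates. The deposited intensity table holds 1 linear intensity for each of 45101 probe sets. The authors' summary method is not given in the sources used here. Intensities at or below 0 make up 15.74% to 18.78% of an array, and array means run from 91.47 to 125.1. The number of arrays limits the precision.

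The authors also deposited, per the file headers, a table for 4 h that gives, by probe set, a ratio of group intensities, the log10 of that ratio, its error and a p-value. Its header does not name the diet on top. The ratio was read as CLA over LA because it correlated with the array differences (Pearson r = 0.877 over 10158 bright probe sets, which are not independent of each other). The error model behind the deposited p-value is not stated.

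A scaling factor brought the mean of each array, without 2% of values at each end, to 500. Negative values became 0, and log2 was taken of the value plus 16. The offset understates changes of dim genes. Probe sets reaching 100 on at least 2 arrays were kept, 64 control probe sets were left out, and each gene was its brightest probe set (12593 genes). Symbols came from the platform annotation (34945 probe sets with 1 symbol, 932 with several, 9160 with none). All 12 arrays were fitted with limma 3.58.1 in R 4.3.3 (lmFit, eBayes; 6 residual and 2.16 prior degrees of freedom). Tests were two-sided, with Benjamini-Hochberg adjustment of p-values over all genes. Tables and figures were made with Python 3.11.15. Where all arrays of a diet were under 100 they were set to 100 and the fold was given as "at least".

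Members, gene lists and rules were chosen with earlier results of these data known. Genes were named if called, if among the 15 highest or lowest by separation, if called in a list described or among its 3 largest differences, or if fixed singly (Pparg, Adipoq, Lep, Atf4, Ddit3, Trib3, Fos, Egr1, Gdf15 and Fgf21). Gdf15 was not analysed here. Other members of a described list are named as examples of its counts, chosen after their values were seen, as were the genes said to be so. On simulated data with the spread of these arrays, the 4 h comparison of 12593 genes called 16 of 50 genes changed by 1 on the log2 scale, 31 of 50 changed by 2 and 40 of 50 changed by 3, and 2 of 12393 that were not changed.

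Rep1 and rep2 were not treated as pairs across diets in the main fit. The differences between replicates correlated at 0.319, 0.385 and -0.09 between CLA and LA at 4, 12 and 24 h. They thus ran partly together at 4 and 12 h, and the replicate block among the alternatives allows for this. Alternatives covered the offset, the filter, the scaling, the probe set rule, the arrays fitted, array weights, a replicate block, each array left out, and the deposited p-values. Setting values under 100 to 100, and comparing each CLA pool alone, were added after seeing the data.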

Additional observations from a re-analysis of the deposited data

Results flagged for a closer look

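The diet effect at 4 h was compared with that of the later times in the same limma fit, by a contrast of the 2 differences. Against 12 h, 3 genes differed at an adjusted p of at most 0.05. The effect of Pole at 4 h was higher by 3.81 on the log2 scale, from values near background, and those of the NRF2 targets Cbr3 and Srxn1 were lower, at -2.37 and -2.21. Against 24 h, 880 genes differed. Among the genes named, the 4 h effect minus the 24 h effect was above 0 for Chac1 (1.53), Pole (5.08), Pparg (1.08), Lep (2.04), Pnpla3 (1.61), Ppp1r3c (1.51) and Galm (1.39). For liver transcripts it was 4.92 in Ttr, 2.64 in Apoa2, 2.41 in Alb and 4.05 in Serpina1c. It was below 0 for the early genes Ccn1 (-1.31), Fos (-2.65) and Egr1 (-2.35), and for Hspa1b (-1.93) and Dnajb1 (-1.54). The same held for the inflammatory genes Ccl2 (-5.0) and Ptx3 (-5.02), for the NRF2 targets Gclm (-1.52), Cbr3 (-3.47) and Srxn1 (-3.08), and for Gata6 (-1.14), Sntb2 (-1.83) and Gas5 (-0.96). The levels of Pparg, Lep, Fos and Egr1 differed little between the diets at 4 h, so their contrasts reflect the size of the effect at 24 h.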

How the results depend on the processing

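The 7 genes higher and 0 lower became 8 and 0 with an offset of 64, 6 and 0 with an offset of 1, and 8 and 0 with no filter. Quantile normalization gave 7 and 0, and the mean of probe sets 6 and 0. Stricter filtering gave 11 and 2, no scaling 18 and 6, median scaling 8 and 1, values under 100 set to 100 gave 14 and 3, and the authors' deposited p-values 46 and 58. No scaling moved the median of all genes to -0.097. With only the 4 arrays of 4 h, or with array weights, 0 genes were higher or lower in limma, with 574 and 472 at an unadjusted p under 0.05. The fit with the 4 arrays has 2 residual degrees of freedom in place of 6. With a replicate block there were 8 higher and 1 lower, and 6 of the 7 calls were kept; the 4 h against 12 h count fell to 0.

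With 1 array left out, the higher count ran from 0 to 12 and the lower count from 0 to 19. It was 4 and 2 without CLA rep1 and 12 and 19 without CLA rep2 of 4 h, 2 and 0 without LA rep1 of 4 h, and 0 and 0 without LA rep2 of 4 h. The 2 genes called without LA rep1 were Ccdc28a and Grap, so 0 of the 7 calls were kept without either LA pool of 4 h. Leaving out either pool of a later group gave 8 and 2 for CLA at 12 h, 1 and 0 for LA at 12 h, 0 and 0 for CLA at 24 h, and 7 and 0 for LA at 24 h. A diet and time left with 1 pool was assumed to vary like the others. Chac1 was called in 8 of these 12 fits, Atf3 and Hmox1 in 6, Ccn1 and Pole in 5, and Hspa1b and Ier3 in 2, all in the same direction.

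The count of 3 genes against 12 h was 11 with an offset of 64, 35 with stricter filtering, 39 with no scaling, 20 with values under 100 set to 100, and 0 to 8 with an array left out. It reached 8 without CLA rep2 of 4 h. That of 880 against 24 h was 1427, 1358 and 1511 with stricter filtering, no scaling and values set to 100, and 192 to 1818 with an array left out. It was lowest without CLA rep2 of 24 h and highest without CLA rep2 of 4 h. The causes of these changes were not tested.

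Of the 30 ranked genes, 22 were kept with the 90th percentile of the SD as the constant and 25 with quantile normalization. For 100 named genes, 2330 of 2491 alternative values kept their direction and side of the threshold, 74 lost the call, 69 gained one and 18 changed sign. Of the sign changes, none passed the test. Adipoq was -0.03 with quantile normalization. With a pool of 4 h left out, Lep ran from -0.21 to 0.09, with 0.05 without CLA rep2. Fos was -0.01 and -0.10 with quantile normalization and no scaling, and ran from -0.29 to 0.33 with a pool left out (-0.16 without LA rep2). Egr1 was 0.02 without LA rep1. The ranges with a pool left out were -0.06 to 1.95 for Mt2 and -0.01 to 1.31 for Casq1, lowest without LA rep1. They were -1.39 to 0.06 for Acvr1c and -0.06 to 0.92 for C1qa, where leaving out CLA rep1 changed the sign. With the mean of probe sets, Fads2 was -0.07 and Snhg11 -0.13. Ppp1r3e was -0.11 with no scaling, 0 with the mean of probe sets, and ran from -0.51 to 0.52 with a pool left out (-0.05 without LA rep1).

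The number of pools limits the comparison: with 2 pools a diet, changes of 1 on the log2 scale were mostly not called on simulated data. The simulated spread was equal on all arrays, unlike that of the CLA pair of 4 h. Between 44.6% and 49.72% of probe sets reached 100 on an array, and differences of the others were measured poorly.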
